A study of Mus musculus with 15 samples.

Results

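The genes described here were 10 inflammatory genes, 10 of the 32544 entries of the deposited table. They were followed in mouse tumors over the week after the first intratumoral injection of poly(I:C). They were chosen by name, with earlier results of these data known. They are the interleukin 1 genes Il1a, Il1b and Il1rn, the cytokines Il6 and Tnf, the NF-kB feedback genes Nfkbia, Nfkbiz and Tnfaip3, the inflammasome sensor Nlrp3, and Ptgs2, the inducible cyclooxygenase. All 10 passed the filter on low counts, among 15494 genes tested. The 15 tumors were WEHI-164 tumors, a fibrosarcoma line from BALB/c mice, grown under the skin of wild-type female BALB/c mice. The 3 untreated tumors were taken on day 0. Treated tumors, 3 a day, were taken 1, 3, 5 and 7 days after the first injection of poly(I:C), an artificial duplex RNA sensed by Toll-like receptor 3. Per the labels the dose was 1 µg in 25 µL daily for a planned 6 injections, but a legend in the study's supplement states more per day, which leaves the dose open to doubt. The labels call the day 0 tumors untreated and name no vehicle group, although the same legend mentions vehicle. Against untreated tumors, the effects of injection, of tumor age and of poly(I:C) cannot be told apart. With 6 daily injections planned, the day 7 tumors were taken after the last of them. The effects of time and of the end of injection therefore cannot be told apart on day 7. All tumors came from 1 cell line, and the RNA was that of the whole tumor, with host and cancer cells together.

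NF-kB is a family of transcription factors held in the cytoplasm by inhibitory IkB proteins. Signals from Toll-like receptors and from the receptors for interleukin 1 and TNF trigger degradation of IkB, after which NF-kB enters the nucleus and drives inflammatory genes. Among those genes are its own brakes: Nfkbia encodes IkB alpha, which returns NF-kB to the cytoplasm, and Tnfaip3 encodes A20, which edits ubiquitin chains on the signaling proteins upstream. In tumors, macrophages and other myeloid cells are major sources of these cytokines, and cancer cells and fibroblasts are common sources of Ptgs2 and Il6.

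Promoter sequence is shown because these genes are known targets of NF-kB, which recognizes kappaB motifs. RefSeq promoter windows on GRCm38.p6, from 250 bases before to 50 bases after a start site, were found for 9 of the 10 genes, without Nfkbiz. The kappaB consensus motif, searched by name on both strands, occurred in at least 1 window of 4 of those 9 genes, which were Il6, Nfkbia, Tnfaip3 and Nlrp3. It occurred in 1388 of all 27025 genes with a window, or 5.14%. Below, 60 bases around each match are printed 5′ to 3′ along the gene, with the match in capitals, and the pair from Tnfaip3 lies in a single window.
Il6, chr5:30013045-30013104, plus strand: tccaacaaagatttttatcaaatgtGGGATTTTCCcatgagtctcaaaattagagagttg
Nfkbia, chr12:55492642-55492701, minus strand: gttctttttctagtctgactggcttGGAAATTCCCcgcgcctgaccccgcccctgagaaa
Tnfaip3 upstream match, chr10:19015501-19015560, minus strand: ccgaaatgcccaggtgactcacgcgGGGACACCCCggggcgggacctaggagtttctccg
Tnfaip3 downstream match, chr10:19015388-19015447, minus strand: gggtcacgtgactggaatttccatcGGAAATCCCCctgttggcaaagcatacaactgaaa
Nlrp3, chr11:59541358-59541417, plus strand: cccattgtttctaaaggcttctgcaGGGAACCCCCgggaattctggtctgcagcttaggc
The matches lay 44 to 35 bases before the start site in Il6, 29 to 20 in Nfkbia, 125 to 116 and 12 to 3 in Tnfaip3, and 186 to 177 in 1 of the 2 windows of Nlrp3. A match is a run of letters and not a measured binding site, and the absence of one from the windows of Il1a, Il1b, Il1rn, Tnf and Ptgs2 says only that these letters are not in those 300 bases.

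Levels are in CPM, the unit that sets each tumor's counts against its TMM-scaled library size. Total counts were 23.7 to 31.9 mega-counts per tumor, and each of the 10 genes had more than the 3 counts that a reading of 0 would allow in every tumor. The lowest was Il6, with 5 to 89 counts. The tumor of day 3 replicate 1 stood apart from the other 14: its mean correlation with them over all genes was 0.884, while the others had means of 0.956 or more, and its summed level of 10 skeletal muscle markers was 3730 CPM against 3.18 to 192 CPM elsewhere. All 10 fibroblast and sarcoma markers, Col1a1 and Vim among them, were found in every tumor. Their sum was 32900 CPM in day 3 replicate 1 and 8490 to 15300 CPM elsewhere. Sums of adipocyte and endothelial markers were also highest in day 3 replicate 1, at 593 CPM against 9.74 to 125 and 601 CPM against 102 to 330.

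Divided by the median length of each gene's coding transcripts, the levels spanned a wide range. Nfkbia was the highest, with a median over the 15 tumors of 75.3 CPM per kb, followed by Ptgs2 with 59.8, Il1rn with 42.5 and Il1b with 26.9 CPM per kb. Tnfaip3 followed with 15.8, Nfkbiz with 11.9, Tnf with 6.75 and Nlrp3 with 5.70 CPM per kb, and Il1a with 1.17 and Il6 with 0.603 CPM per kb were the lowest. Neighbors in this order were often not separated. Nfkbia exceeded Ptgs2 in 11 of 15 tumors, Ptgs2 exceeded Il1rn in 10, Il1b exceeded Tnfaip3 in 12 and Il1a exceeded Il6 in 12. The order of the middle genes also depended on the length used: by the length of all exons, Il1b stood above Il1rn and Tnfaip3 took the eighth place instead of the fifth.

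Across the time course, the day 3 tumors lay wholly above the day 0 tumors for 7 of the 10 genes, Ptgs2 was lower without overlap, and Il1b and Il6 overlapped. The genes that were separated upward were Il1a, Il1rn, Tnf, Nfkbia, Nfkbiz, Tnfaip3 and Nlrp3. Of all genes tested, 19.4% were higher and 19% lower on day 3 without overlap. By day 7 the tumors of all 10 genes overlapped those of day 0 again. None of these differences passed the adjusted threshold of edgeR's quasi-likelihood test, in any comparison. In bulk tumors, fewer cells of a type and less RNA per cell cannot be told apart.

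**Figure D1:**
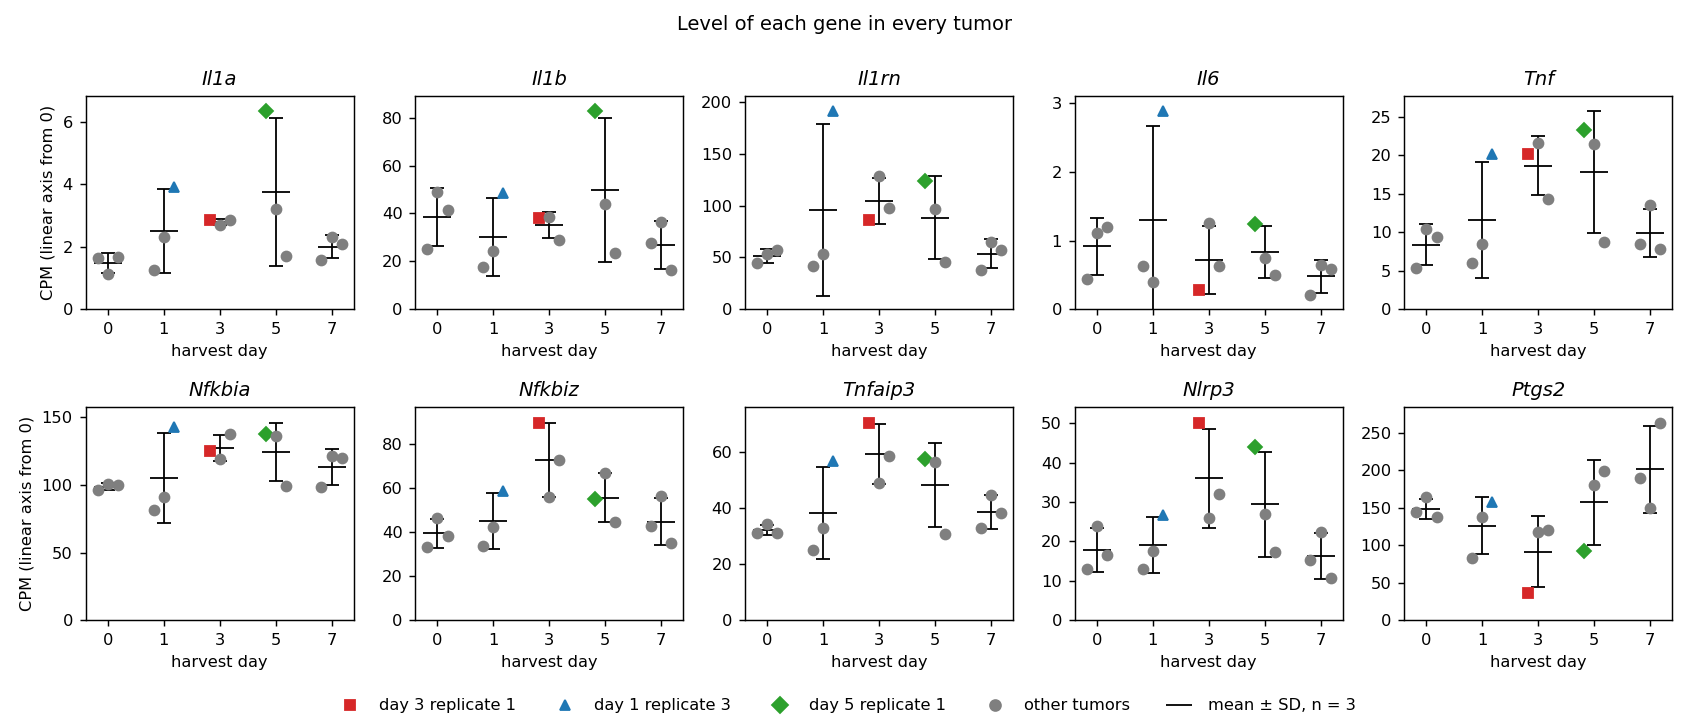
CPM of each of the 10 genes (linear axis from 0) by harvest day, with 1 point per tumor and the mean ± SD of 3 tumors in black. Red squares, blue triangles and green diamonds mark day 3 replicate 1, day 1 replicate 3 and day 5 replicate 1. The 3 day 3 tumors lie above the 3 day 0 tumors for 7 genes and below them for Ptgs2, and the lower SD bar of Il6 on day 1 runs below the axis.

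The interleukin 1 genes were not alike. Il1a (chr2:129299610-129309972) and Il1b (chr2:129364570-129371139) encode the agonists, which bind the same receptor, and Il1rn (chr2:24336853-24351494) encodes the receptor antagonist that blocks both. Il1b was at 25.1, 49.0 and 41.3 CPM on day 0, at 17.7, 24.2 and 48.4 on day 1, and at 38.2, 38.3 and 28.8 CPM on day 3. It was at 82.7, 44.0 and 23.3 CPM on day 5 and at 27.4, 36.5 and 16.3 CPM on day 7. The tumors of every treated day overlapped those of day 0, and the spread on day 5 was wider than the difference between the means. The log2 fold change of Il1b against day 0 was -0.13 ± 0.46 (SE) on day 3, with an edgeR adjusted p of 0.85.

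Il1rn was at 44.4, 53.3 and 57.6 CPM on day 0 and at 85.9, 129 and 97.6 CPM on day 3. All 3 day 3 tumors were above all day 0 tumors, at a fold change of 2.01 and a log2 fold change of 1.01 ± 0.50 (SE; edgeR adjusted p = 0.186), and it was 1.14 without day 3 replicate 1. On day 1 it was at 41.6 and 53.6 CPM in replicates 1 and 2 and at 191 CPM in replicate 3, the highest value of the time course. The log2 fold change of day 1, 0.88 ± 0.50, became -0.12 without that tumor, so 1 tumor set the day 1 mean. On day 5 Il1rn was at 124, 96.6 and 45.2 CPM and on day 7 at 38.3, 65.3 and 57.5 CPM, when it was again within the range seen on day 0 in 1 tumor of 3 and close to it in the others.

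Il1a was low throughout, between 30 and 173 counts per tumor. It was at 1.65, 1.12 and 1.68 CPM on day 0, at 1.27, 2.31 and 3.92 CPM on day 1 and at 2.86, 2.68 and 2.84 CPM on day 3. The day 3 tumors lay close together and above day 0, with a log2 fold change of 0.91 ± 0.46 (edgeR adjusted p = 0.192), or 0.90 with day 3 replicate 1 left out. On day 5 it was at 6.33, 3.20 and 1.69 CPM, the only gene of the 10 whose day 5 tumors did not overlap those of day 0, and the lowest of them exceeded the highest day 0 tumor only narrowly. Its day 5 log2 fold change was 1.33 ± 0.46 (edgeR adjusted p = 0.859) and 0.72 without day 5 replicate 1. On day 7 it was at 1.59, 2.32 and 2.09 CPM.

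The ratio of Il1rn to Il1b within a tumor compares antagonist with agonist and does not depend on library size. The ratio was 1.77, 1.09 and 1.40 counts per count on day 0, 2.36, 2.21 and 3.95 on day 1, and 2.25, 3.37 and 3.39 on day 3. Both treated days lay above day 0 in all 3 tumors, unlike Il1rn itself on day 1. The mean log2 ratio was higher than on day 0 by 0.98 on day 1 and by 1.09 on day 3, each with an exact two-sided permutation p of 0.1, the smallest that 3 tumors against 3 can give, and 0.6 after adjustment over the 20 ratio comparisons made. On day 5 the ratio was 1.5, 2.2 and 1.94, and on day 7 it was 1.39, 1.79 and 3.52. Both days overlapped day 0. This ratio was singled out after its values were seen, and the corresponding ratio of Il1rn to Il1a overlapped day 0 on all 4 treated days.

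Il6 and Tnf, classic cytokine products of NF-kB, also differed from each other. Tnf (chr17:35199381-35202007), which both activates and is induced by NF-kB, was at 5.39, 10.5 and 9.32 CPM on day 0, at 20.2, 21.6 and 14.3 CPM on day 3 and at 23.3, 21.4 and 8.80 CPM on day 5. It was separated from day 0 on day 3, at a fold change of 2.23, and on day 5 replicate 3 alone lay within the day 0 range. The log2 fold change was 1.16 ± 0.46 on day 3 (edgeR adjusted p = 0.136), or 1.10 without day 3 replicate 1, and 1.09 ± 0.46 on day 5 (edgeR adjusted p = 0.859). On day 1 Tnf was at 6.01, 8.53 and 20.1 CPM and on day 7 at 8.42, 13.5 and 7.81 CPM.

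Il6 (chr5:30013114-30019981), a cytokine of the acute phase response, has a kappaB match in the window printed above and showed no separation on any day. It was at 0.438, 1.12 and 1.20 CPM on day 0, at 0.635, 0.399 and 2.88 on day 1, and at 0.282, 1.25 and 0.622 CPM on day 3. It was at 1.24, 0.747 and 0.503 CPM on day 5 and at 0.203, 0.646 and 0.585 CPM on day 7. The tumors of each treated day overlapped day 0, and the standard errors of the log2 fold changes, 0.74 to 0.78, were larger than for any other gene of the 10. Its day 1 log2 fold change of 0.52 became -0.81 without replicate 3.

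The feedback genes had the smallest standard errors of the 10. Nfkbiz (chr16:55811375-55838899) encodes IkB zeta, a nuclear IkB protein that helps NF-kB drive a subset of its targets. It was at 33.4, 46.6 and 38.5 CPM on day 0, at 33.9, 42.4 and 58.8 CPM on day 1 and at 89.7, 55.8 and 72.8 CPM on day 3. It was at 55.3, 66.8 and 44.6 CPM on day 5 and at 42.8, 56.2 and 35.3 CPM on day 7. Day 3 stood above day 0 in all 3 tumors, and the means of days 5 and 7 lay between. The day 3 log2 fold change was 0.88 ± 0.25 (edgeR adjusted p = 0.115), or 0.71 with day 3 replicate 1 left out.

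Tnfaip3 (chr10:19000910-19015657) followed nearly the same course. It was at 31.0, 34.2 and 31.1 CPM on day 0, at 25.1, 32.7 and 56.8 CPM on day 1 and at 70.4, 48.8 and 58.5 CPM on day 3. It was at 57.5, 56.3 and 30.9 CPM on day 5 and at 32.8, 44.8 and 38.1 CPM on day 7. Its 3 untreated tumors were tightly grouped and all day 3 tumors exceeded them, at a log2 fold change of 0.88 ± 0.29 (edgeR adjusted p = 0.115), or 0.74 with day 3 replicate 1 left out.

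Nfkbia (chr12:55489410-55492647) was the most abundant of the 10 per kb and the least variable, with a 1.75-fold range over the 15 tumors. It was at 96.1, 100.2 and 99.8 CPM on day 0, at 81.6, 90.9 and 143 CPM on day 1 and at 125, 119 and 137 CPM on day 3. It was at 138, 136 and 99.3 CPM on day 5 and at 98.0, 122 and 120 CPM on day 7. Day 3 was again above day 0 in all 3 tumors, but by a smaller amount, with a log2 fold change of 0.37 ± 0.19 (edgeR adjusted p = 0.198), or 0.38 with day 3 replicate 1 left out. The ratio of Nfkbia to Nfkbiz was lower on day 3, at 1.39, 2.13 and 1.89, than on day 0, at 2.88, 2.15 and 2.59, with an exact two-sided permutation p of 0.1 and 0.6 after adjustment over the 20 ratio comparisons. The highest day 3 tumor and the lowest day 0 tumor nearly met. The ratio of Tnfaip3 to Tnf, a brake against its inducer, overlapped day 0 on all 4 treated days. These ratios too were chosen after the values were seen.

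Nlrp3 (chr11:59541568-59566956) encodes the sensor of the inflammasome that activates caspase 1 to cleave pro-interleukin 1 beta. It was at 13, 23.8 and 16.5 CPM on day 0, at 13, 17.5 and 26.8 CPM on day 1 and at 50.1, 26.0 and 32 CPM on day 3. It was at 43.9, 26.9 and 17.4 CPM on day 5 and at 15.4, 22.4 and 10.9 CPM on day 7. Day 3 was above day 0 in all 3 tumors, although the lowest day 3 tumor exceeded the highest day 0 tumor by little. The day 3 log2 fold change was 1.02 ± 0.40 (edgeR adjusted p = 0.132), or 0.71 with day 3 replicate 1 left out, the tumor with the highest Nlrp3 level.

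Ptgs2 (chr1:150100031-150108227), which makes the prostaglandin precursor from arachidonic acid, ran in the other direction. It was at 144, 164 and 138 CPM on day 0, at 83.4, 137 and 157 CPM on day 1 and at 36.6, 117 and 121 CPM on day 3. It was at 92.4, 181 and 198 CPM on day 5 and at 190.2, 149 and 263 CPM on day 7. All 3 day 3 tumors were below all day 0 tumors and below all day 7 tumors. The day 3 log2 fold change was -0.70 ± 0.41 (edgeR adjusted p = 0.245), and it was -0.32 without day 3 replicate 1, which had the lowest Ptgs2 level of all 15 tumors.

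Counts of genes past a threshold summarize these courses. Against day 0, edgeR called 0 of the 10 genes on each of the 4 treated days at an adjusted p under 0.05, as it called 0% of all genes tested on each day. A joint test over the 4 treated days also called 0 of 10, against 0% of all genes, and gave 2 of 10, Nfkbiz and Nlrp3, at an unadjusted p under 0.05 against 16.2% of all genes. Day 3 gave 4 of the 10 genes at an unadjusted p under 0.05, all higher, namely Nfkbiz, Tnfaip3, Nlrp3 and Tnf, while 30% of all genes tested reached it and 18.3% were higher. Without day 3 replicate 1, 2 of the 10 reached it, against 13.1% of all genes. On day 5 there were 2 genes, Il1a and Tnf, both higher, against 4.8% of all genes and 1.41% higher, and days 1 and 7 had 0, against 3.16% and 2.07%.

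Day 1 and day 7 showed 0 of 10 genes separated from day 0. On day 1, 5.76% of all genes were higher and 6.61% lower without overlap. Without day 1 replicate 3, Il1b, Nfkbia and Ptgs2 were lower on day 1 without overlap, 3 of 10 genes against 13.6% of all genes. On day 7, the shares were 5.02% and 6.26%. On day 5, Il1a alone of the 10 was separated, against 6.89% of all genes higher. The median log2 fold change of the 10 genes against day 0 was 0.22 at day 1, then 0.88, 0.54 and 0.19 at days 3, 5 and 7, while the median of all genes tested lay between -0.02 and 0.00. Without day 3 replicate 1, the same 7 genes were higher and Ptgs2 lower on day 3 without overlap, with 23.2% of all genes higher and 22.9% lower, and the median of the 10 was 0.71. The day 1 median turned to -0.20 without day 1 replicate 3, and the day 7 median to -0.032 without day 7 replicate 2.

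DESeq2, run as an alternative, called Nfkbiz (adjusted p = 0.0187) and Tnfaip3 (adjusted p = 0.0341) on day 3, when it called 12.9% of all genes. Without day 3 replicate 1 it called 0 of the 10 and 0.555% of all genes. It also called 0 of the 10 without day 0 replicate 1, with 0.0839% of all genes, and without day 0 replicate 3, with 0.471%. Without day 1 replicate 3, a tumor of neither day compared, it called 6 of the 10 and 17.3% of all genes. The 6 were Il1rn, Tnf, Nfkbia, Nfkbiz, Tnfaip3 and Nlrp3. The limma-voom test called 0 of the 10 and 0% of all genes on every day.

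**Figure D2:**
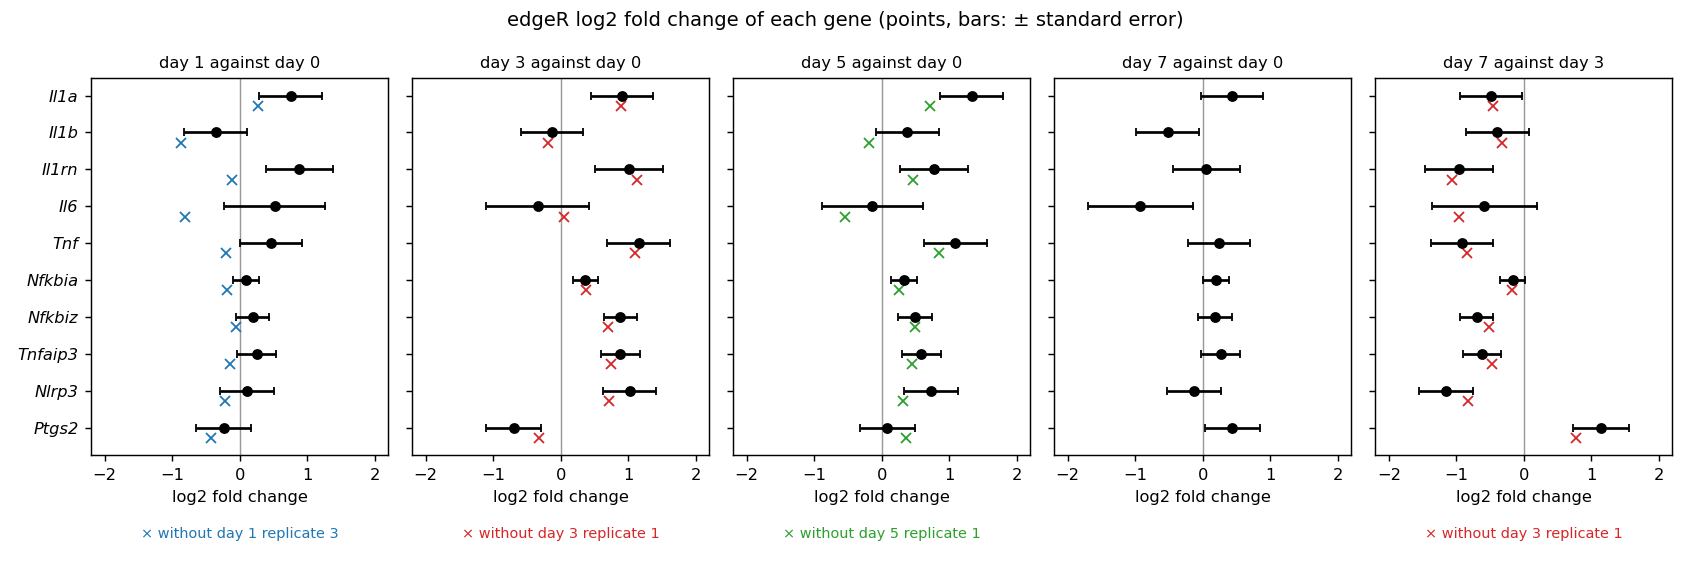
Log2 fold change (x axis) of each gene in 5 comparisons from edgeR's fit of all 15 tumors (black points, bars ± SE), with the value without 1 marked tumor as a cross. On day 3, 7 genes lie between 0.37 and 1.16 and Ptgs2 at -0.70; on day 1, 9 of the 10 crosses lie below 0 without replicate 3, where 2 of the 10 points do with it.

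Between day 3 and day 7 the courses turned back, and by day 7 the planned injections had ended. Il1a, Il1rn, Tnf, Tnfaip3 and Nlrp3 were lower on day 7 than on day 3 without overlap, 5 of 10 genes against 18.4% of all genes, and Ptgs2 was higher, 1 of 10 against 14.6% of all genes. By edgeR 0 of 10 were called, as were 0% of all genes. At an unadjusted p under 0.05, Nlrp3 and Nfkbiz were lower and Ptgs2 was higher, which is 3 of 10 genes against 35.5% of all genes, with 22.6% lower and 12.9% higher. Nlrp3 had a log2 fold change of -1.15 ± 0.40 (edgeR adjusted p = 0.0893), Nfkbiz one of -0.70 ± 0.25 (edgeR adjusted p = 0.0902) and Ptgs2 one of 1.14 ± 0.41 (edgeR adjusted p = 0.0947). These 3 genes were called by DESeq2, at adjusted p-values of 0.0308, 0.0388 and 0.0323, with 21% of all genes, and 0 of the 10 were called by DESeq2 without day 3 replicate 1, with 0.581% of all genes. DESeq2 also called 0 of the 10 without day 7 replicate 1, with 0.0774% of all genes, and without day 7 replicate 3, with 0.123%. The comparisons of day 3 with day 0 and with day 7 share the day 3 tumors, so they are not independent.

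On days 0, 1, 5 and 7, the tumors of 1 day differed from each other in a shared way. Among the untreated tumors of day 0, replicate 2 had the highest level for 7 genes and replicate 1 the lowest for 8. Replicate 3 of day 1 had the highest level of its day for all 10 genes. Replicate 1 of day 5 had the highest level of its day for 8 genes, with Nfkbiz and Ptgs2 as the exceptions, and replicate 3 of day 5 had the lowest for 9 genes, all but Ptgs2. On day 7 replicate 2 was the highest for 9 genes, again all but Ptgs2. Day 3 had no such order. Its replicates 1, 2 and 3 were the highest for 4, 4 and 2 genes and the lowest for 3, 5 and 2. The share of all genes tested with these orders was not counted.

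Several lists of cell type markers moved with the order of the tumors on days 1 and 5. The summed level of 14 macrophage markers was 2140, 2940 and 4670 CPM in day 1 replicates 1, 2 and 3, and 6150, 5540 and 3250 CPM in those of day 5. That of the neutrophil markers was 60.5, 73.6 and 252 CPM on day 1 and 285, 136 and 68.3 CPM on day 5, although Ly6g, the defining neutrophil marker, reached at most 0.184 CPM and had no count in 3 tumors. Within both days the tumors with high cytokine levels were those with high myeloid markers, and with high markers of some other cells. The T cell sum was 28.8, 28.3 and 94.3 CPM in day 1 replicates 1, 2 and 3. In those of day 5 it was 206, 112 and 33.1 CPM. The endothelial sum was 187, 148 and 271 CPM on day 1 and 330, 201 and 131 CPM on day 5. The fibroblast and sarcoma sum had the same extremes. Keratinocyte markers were lowest in day 1 replicate 3 and day 5 replicate 1. Hypoxia, erythroid and skeletal muscle lists were not highest in day 5 replicate 1. The part of these markers in the cytokine levels was not tested.

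On day 3 the summed macrophage markers were at 12300, 5110 and 5300 CPM, above the 2710 to 3250 CPM of day 0 in all 3 tumors, and they were at 2000 to 4250 CPM on day 7. The 7 genes that were higher on day 3 than on day 0 were thus higher on a day with more macrophage RNA. Within day 3, replicate 1 had the most macrophage RNA but the lowest Il1rn, at 85.9 CPM against 129 and 97.6 CPM. It was below replicate 2 for Tnf (20.2 against 21.6 CPM) and below replicate 3 for Nfkbia (125 against 137 CPM). It was the highest of day 3 for Il1a, Nfkbiz, Tnfaip3 and Nlrp3. The part of macrophage RNA in these levels was not tested. Over the 15 tumors, Pearson's r of log2 CPM with the mean of the macrophage markers was 0.936 for Nfkbiz (0.916 without day 3 replicate 1), 0.918 for Nlrp3, 0.80 for Tnf, 0.651 for Il1rn and 0.577 for Il1b. Other immune lists gave higher values for some genes. Il1rn had an r of 0.888 with the monocyte markers, and Il1b one of 0.767 with the neutrophil markers. The summed level of 10 T cell markers was 377, 106 and 114 CPM on day 3, above the 36.4 to 50.9 CPM of day 0 as the macrophage markers were. With the T cell markers, r was 0.952 for Nlrp3, 0.84 for Tnf and 0.73 for Il1b. Lists of other cells gave positive values too. With the fibroblast and sarcoma markers, r was 0.684 for Nfkbiz, 0.824 for Nlrp3, 0.596 for Tnf, 0.465 for Il1rn and 0.595 for Il1b. With the endothelial markers it was 0.651, 0.795, 0.614, 0.489 and 0.598 for the same genes. Without day 3 replicate 1, r of Il1b was 0.871 and 0.842 with these lists and 0.713 with the macrophage markers. Without that tumor, r with these lists fell to 0.472 and 0.409 for Nfkbiz and to 0.791 and 0.723 for Nlrp3. It was 0.624 and 0.64 for Tnf and 0.622 and 0.641 for Il1rn. The part of the T cell markers and of these other lists in the levels was not tested. The same tumors share libraries, days and immune content, so these values describe these tumors and are not a test.

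Ptgs2 was unlike the others here too. Its r was -0.694 with the macrophage markers (-0.347 without day 3 replicate 1), -0.865 with the fibroblast and sarcoma markers (-0.647 without it) and 0.862 with a list of 10 hypoxia genes (0.778 without that tumor). Other lists gave strong values too. With the endothelial, adipocyte and T cell markers, r was -0.863, -0.788 and -0.702, or -0.653, -0.564 and -0.509 without that tumor. The hypoxia list summed to 1640, 2880 and 2990 CPM on day 3, to 2990 to 3900 CPM on day 0 and to 3210 to 5500 CPM on day 7. Day 3 and day 0 met on that list, at 2990 CPM in replicate 3 of both days, while for Ptgs2 they did not overlap. The part of that list and of the others in the Ptgs2 level was not tested.

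**Figure D3:**
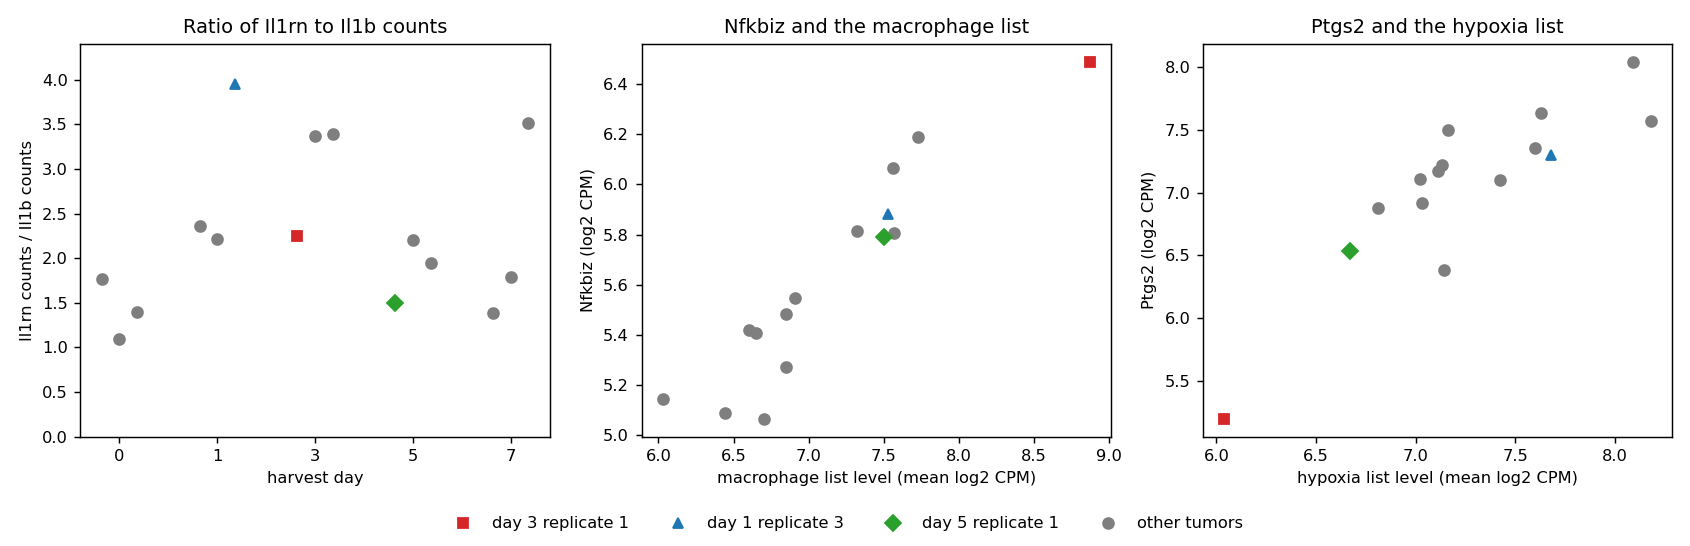
Left, counts of Il1rn divided by counts of Il1b in each tumor by harvest day, with all tumors of days 1 and 3 above those of day 0. Middle and right, log2 CPM of Nfkbiz against the mean log2 CPM of 14 macrophage markers (r = 0.936) and of Ptgs2 against that of 10 hypoxia genes (r = 0.862), with 1 point per tumor and the same 3 tumors marked.

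The genes went together across tumors, apart from Ptgs2 and, less closely, Il6. Among the 8 genes without Ptgs2 and Il6, all 28 pairs had a positive Pearson's r over the 15 tumors, from 0.532 for Il1b and Nfkbiz to 0.922 for Nfkbia and Tnfaip3, with a median of 0.806. The median was 0.799 for deviations from the day means, so the shared variation was within days as well as between them. The 8 pairs of Il6 with those genes had a median r of 0.391, and the 9 pairs with Ptgs2 had a median of -0.254, with 1 of 9 above 0. The points share libraries and cell content, and no test was made of these values.

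**Figure D4:**
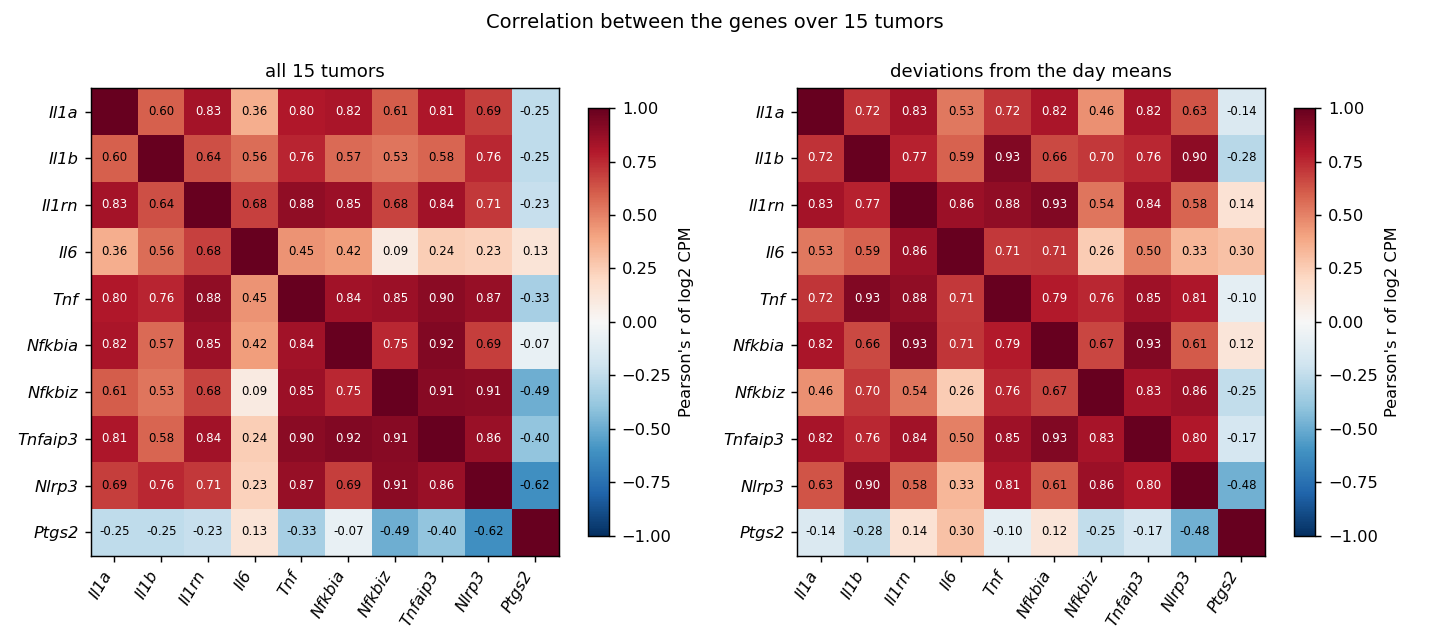
Pearson's r of log2 CPM between each pair of the 10 genes over the 15 tumors (left) and of their deviations from the day means (right), from -1 in blue to 1 in red. The block of 8 genes without Ptgs2 and Il6 is red throughout, with r of 0.532 or more on the left and 0.457 or more on the right.

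Genes of any kind with the most similar pattern over the 15 tumors were, for each gene, the 3 with the highest r among all those tested. For Nfkbiz they were Adgre1 (r = 0.978), which encodes the macrophage marker F4/80, Rassf4 (0.976) and C1qc (0.973), a complement chain made by macrophages. For Nlrp3 they were Tlr2 (0.975), a receptor for bacterial lipoproteins, P2ry14 (0.975) and Cybb (0.973), the phagocyte NADPH oxidase subunit. Those of Tnf were Slc15a3 (0.965), the chemokine Ccl3 (0.955) and the lectin receptor Clec4e (0.952). Those of Il1rn were Nos2 (0.936), the inducible nitric oxide synthase, Mxd1 (0.935) and Clec4e (0.933).

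Of the other feedback genes, Nfkbia was closest to Tnfaip3 (0.922), Ccl3 (0.893) and Ell2 (0.889), and Tnfaip3 to Coa5 (0.946), Ccl3 (0.944) and Ubash3b (0.939). For Il1b they were Htr7 (0.925), Clec4n (0.885) and Tnfsf11 (0.870), for Il1a Gm18537 (0.878), Gm15590 (0.877) and Snx18 (0.874), and for Il6 Znrf1 (0.857), Brd2 (0.846) and Cox18 (0.843). Ptgs2 was closest to Lif (0.951), an interleukin 6 family cytokine, Pvr (0.950), an adhesion molecule and ligand of immune receptors, and Ereg (0.946), a ligand of the EGF receptor. These 3 remained the 3 most similar genes without day 3 replicate 1, at r of 0.881, 0.907 and 0.866. Most of the other genes named lost their place without that tumor, although their r changed little: Tnfsf11 came 78th for Il1b, Clec4e and Nos2 came 40th and 29th for Il1rn, Brd2 31st for Il6, and Snx18 and Gm18537 came 20th and 17th for Il1a.

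The rest of the pathway was read from lists written from general knowledge, and edgeR's fit of all 15 tumors called 0 of the genes tested in every list and comparison. The counts below are of genes at an unadjusted p under 0.05 on day 3 against day 0, when 18.3% of all genes tested were higher and 11.7% lower, or 6.53% each without day 3 replicate 1. The genes named are the 2 of each list with the smallest p in the joint test, 14 in all, so they were chosen for a difference. DESeq2 called 10 of these 14 on day 3, beside 12.9% of all genes, and 0 of the 14 without day 3 replicate 1, beside 0.555%. That tumor was the highest of day 3 for 11 of the 14. Among the NF-kB subunits and their kinases, 8 genes, 1 was higher and 1 lower on day 3, with a list median of 0.12 in log2 fold change. Without day 3 replicate 1, 1 was higher and 0 lower, with a median of 0.028. Rel, the c-Rel subunit, was at 24.4 ± 0.36 CPM on day 0 (SD, n = 3) and at 30.4 ± 6.96 on day 3, a log2 fold change of 0.32 ± 0.14 (edgeR adjusted p = 0.164) that was 0.13 without day 3 replicate 1. Ikbkg, the regulatory subunit of the IkB kinase, was at 56.2 ± 4.81 CPM on day 0 and at 83.7 ± 25.5 CPM on day 1, when the tumors did not overlap (edgeR adjusted p = 1.0).

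Inhibitors of the pathway, 14 genes, had 5 higher and 0 lower on day 3, with a list median of 0.40. Without day 3 replicate 1 these were 1 and 0, with a median of 0.23. Irak3, a kinase-dead relative that blocks Toll-like receptor signaling, was at 5.37 ± 1.56 CPM on day 0 and at 25.6 ± 18.0 CPM on day 3, a log2 fold change of 2.26 ± 0.66 (edgeR adjusted p = 0.115), or 1.52 without day 3 replicate 1, which was at 46.3 CPM. Tnip1, a partner of A20, was at 57.4 ± 1.86 CPM on day 0 and at 81.9 ± 17.9 CPM on day 3 (edgeR adjusted p = 0.115). Of the other targets of NF-kB, 20 of 22 were tested, and 6 were higher and 1 lower on day 3, or 7 and 1 without day 3 replicate 1. Vcam1, an adhesion molecule for leukocytes, was at 151 ± 7.26 CPM on day 0 and at 273 ± 41.1 CPM on day 3 (edgeR adjusted p = 0.115). Ier3, an early response gene, was higher on day 7 instead, at 79.9 ± 19.7 CPM against 45.6 ± 3.95 CPM on day 0 (edgeR adjusted p = 1.0).

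Receptors and their signaling partners, 19 genes, had 3 higher and 2 lower on day 3, or 1 and 1 without day 3 replicate 1. The interleukin 1 receptor was among the lower genes and a TNF receptor among the higher. Il1r1, the signaling receptor for both interleukin 1 agonists, was at 126 ± 9.44 CPM on day 0 and at 83.7 ± 7.43 CPM on day 3, without overlap and with a log2 fold change of -0.59 ± 0.15 (edgeR adjusted p = 0.115). The value was -0.57 without day 3 replicate 1. Of 210 edgeR tests of the 14 named genes on day 3 with 1 tumor left out, 1 was called, that of Il1r1 without the third tumor of day 1, when 0.394% of all genes were called. Tnfrsf1b, a TNF receptor prominent on leukocytes, was at 114 ± 4.17 CPM on day 0 and at 247 ± 105 CPM on day 3, a log2 fold change of 1.11 ± 0.32 (edgeR adjusted p = 0.115) that was 0.71 without day 3 replicate 1.

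Related cytokines had 4 higher and 0 lower of 11 tested on day 3, out of 15 listed, or 3 and 0 without day 3 replicate 1. Tnfsf10, which encodes the death ligand TRAIL, was at 12.9 ± 2.93 CPM on day 0, 36.5 ± 16.3 CPM on day 3 and 9.85 ± 4.19 CPM on day 7. Ltb, which encodes lymphotoxin beta, was at 6.17 ± 1.29 CPM on day 0 and at 53.3, 15.9 and 13.2 CPM in the 3 tumors of day 3, of which replicate 1 was the highest.

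On the inflammasome list 8 of 12 genes were higher on day 3 and 0 lower, with a median log2 fold change of 1.15. Without day 3 replicate 1 these were 6 and 0, with a median of 0.69. Aim2, a sensor of cytoplasmic DNA, was at 9.79 ± 2.0 CPM on day 0 and at 44.4, 17.7 and 18.1 CPM on day 3. Il18bp, the soluble antagonist of interleukin 18, was at 21 ± 6.79 CPM on day 0, 118 ± 56.4 CPM on day 3 and 21.1 ± 14.4 CPM on day 7, a log2 fold change on day 3 of 2.49 ± 0.67 (edgeR adjusted p = 0.115) that was 2.04 without day 3 replicate 1. By day 7 the list median against day 0 was -0.09.

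Of the prostaglandin and leukotriene genes, 15 of 16 were tested, and 5 were higher and 1 lower on day 3, or 1 and 1 without day 3 replicate 1. Tbxas1, the thromboxane synthase, was at 23.1 ± 1.73 CPM on day 0 and at 121, 38.9 and 42.3 CPM in the 3 day 3 tumors (edgeR adjusted p = 0.115). Ptger1, a prostaglandin E2 receptor, was at 36.0 ± 2.02 CPM on day 0 and at 47.5 ± 9.43 CPM on day 3 (edgeR adjusted p = 0.123). Both were higher on the day when Ptgs2 was lower.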

How the data were processed

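RNA was sequenced from 15 tumors, 3 on each of 5 harvest days, as poly(A) single-end libraries. The authors deposited estimated counts per gene, made with kallisto and tximport on mm10, the GRCm38 assembly, as whole numbers, and they were used unrounded. Since kallisto splits reads among similar transcripts, counts of near-identical genes are uncertain. The transcript set and strandedness are not given in the sources used here. Harvest day and replicate came from the time point labels. Nothing states whether same-numbered tumors share a litter or batch, and replicate pairs differed by more than counting noise (chi-square per degree of freedom of 9.47 to 282). The p-values measure only the spread between these tumors.

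The table had 32544 entries, of which 31401 matched a gene symbol. An entry named by a date, at most 0.0268% of a tumor's counts, was left out. Totals were 23.7 to 31.9 mega-counts, and 3 counts correspond to 0.094 to 0.127 CPM. This covers counting error only, because no molecular identifiers mark the reads. Coordinates are those of GENCODE M21 on GRCm38.

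Genes above the study's CPM minimum in at least 3 tumors, 15494 in all, were tested with edgeR 4.0.16 (R 4.3.3): TMM factors, 1 quasi-likelihood model over the 15 tumors with harvest day alone, two-sided tests and Benjamini-Hochberg adjustment over all genes. The standard error is the log2 fold change divided by the square root of F. DESeq2 1.42.0 and limma 3.58.1 (voom) were alternatives, beside other scalings, no filter, only the days compared, a replicate block and leaving out each tumor. Log2 CPM for correlations used a prior count of 2. The code was tested on simulated data. The 10 genes, all lists and the tests were chosen with earlier results of these data known. Named genes were the 10, the 2 genes per list with the smallest p in the joint test, and the 3 most similar genes for each of the 10.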

Additional observations from a re-analysis of the deposited data

How the results depend on the processing

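Under 7 other settings (DESeq2, limma-voom, other size factors, library totals, no filter, only the days compared and a replicate block), the 10 genes kept the direction of their log2 fold change in all values but 2. The exceptions came with the replicate block on day 5, at 0.14 for Il6 and -0.022 for Ptgs2, and the block changed no call of the 10 genes. Same-numbered tumors correlated between -0.619 and 0.511 in their deviations, 9 of 30 pairs above 0.1, and 4 of 15 tumors correlated best with their own number, so the numbers were not treated as pairing. DESeq2 called 2 of the 10 on day 3 (12.9% of all genes) and 3 between days 7 and 3 (21%). At an unadjusted p under 0.05, the fit of only the days compared gave 7 on day 3 (20.9% of all genes), 5 on day 5 (12.9%) and 6 between days 7 and 3 (18.6%). DESeq2 gave 6 between days 7 and 3 (39.6%) and 4 in the joint test (24.6%), and limma-voom gave 1 on day 5 (4.88%) and 1 in the joint test (11.6%).

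Leaving out each of the 15 tumors in turn, edgeR called 0 of the 10 genes in every comparison, while of all genes it called up to 0.394% on day 3 and up to 13.5% between days 7 and 3. At an unadjusted p under 0.05 it gave 0 to 2 genes on day 1 (1.23% to 5.44% of all genes), 2 to 6 on day 3 (13.1% to 40.1%), 0 to 6 on day 5 (1.77% to 10%), 0 to 6 between days 7 and 3 (15.7% to 44.1%) and 0 to 6 in the joint test (7.18% to 21.7%). DESeq2, run the same way after the data were seen, called 0 to 6 on day 3 (0.0839% to 27.3% of all genes), 0 to 5 between days 7 and 3 (0.0774% to 34.0%) and 0 to 6 in the joint test (1.2% to 15.3%). On day 3 it called 0 when replicate 1 or 3 of day 0 (0.0839% and 0.471% of all genes), or replicate 1 of day 3 (0.555%), was left out. Between days 7 and 3 it called 0 when replicate 1 of day 3 (0.581% of all genes), or replicate 1 or 3 of day 7 (0.0774% and 0.123%), was left out. The highest counts of both and of the joint test came without day 1 replicate 3. The cause was not tested. Log2 fold changes that changed sign when a tumor was left out ranged on day 1 from -0.12 to 1.24 for Il1rn, -0.81 to 0.94 for Il6, -0.20 to 0.78 for Tnf, -0.19 to 0.24 for Nfkbia, -0.048 to 0.36 for Nfkbiz, -0.15 to 0.48 for Tnfaip3 and -0.22 to 0.37 for Nlrp3. On day 3 they ranged from -0.36 to 0.082 for Il1b and -1.01 to 0.041 for Il6, and on day 5 from -0.19 to 0.72 for Il1b, -0.55 to 0.12 for Il6 and -0.12 to 0.35 for Ptgs2. On day 7 they ranged from -0.11 to 0.25 for Il1rn, -0.047 to 0.43 for Tnf, -0.017 to 0.33 for Nfkbiz and -0.44 to 0.14 for Nlrp3, and between days 7 and 3 from -0.96 to 0.089 for Il6. Il6 had the lowest depth, with 5 to 89 counts per tumor.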
